A study of Mus musculus with 8 samples.

Results

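The genes described here are 8 genes that mark megakaryocytes and platelets, Itga2b, Itgb3, Gp9, Gp1ba, Gp1bb, Vwf, Rab27b and Treml1, and the chromatin loops that reached their start sites. A loop was counted for a gene when one of its 5 kb ends was the bin holding the gene's canonical start site in the GENCODE annotation of GRCm39. By this rule 6 of the 8 genes had a loop in at least 1 of 4 loop lists, as did 10513 (48.3%) of all 21751 protein-coding genes. The start-site bins carried 13 of the 80489 loops of untreated p30 cells, 18 of 94609 in p30 cells after lipopolysaccharide (LPS), 28 of 158233 in untreated p42 cells and 8 of 78591 in p42 cells after LPS.

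The loops came from HiChIP, in which contacts between distant pieces of chromatin are captured by proximity ligation and enriched with an antibody, here against H3K27ac, the histone mark of active promoters and enhancers. HPC-7 is a mouse hematopoietic progenitor line grown in stem cell factor. By the paper's account of its main p42 and p30 lines, it was stably transduced with a constitutive plasmid for 1 isoform of the transcription factor CEBPA. This was either p42, the full-length protein, or p30, the N-terminally truncated form. Each was fused to ERT2 so that its entry into the nucleus depends on 4-hydroxytamoxifen. The labels of these libraries name only the isoform, and the study also made lines with unfused isoforms. Per the study's methods, lines with ERT2 fusions received 4-hydroxytamoxifen the day before an experiment, so untreated is read here as without LPS. Cells of both lines were left untreated (UT) or were given LPS, the bacterial ligand of Toll-like receptor 4, at 100 ng/mL for 2 h. Both groups of each comparison thus carry a CEBPA transgene, and how many transductions or clones a line stands for is not given in the sources used here. The 4 groups had 2 libraries each, 8 in all, but each loop list pools both libraries of its group, so no value below has a spread between replicates. Where 4 values follow each other below without labels, the first pair is untreated and LPS-treated p30, and the second pair untreated and LPS-treated p42. In such bulk libraries more cells with a contact and more contact per cell cannot be told apart.

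Megakaryocytes are the bone marrow cells that shed platelets, and they arise from early progenitors that already share some of their program. Platelets stop bleeding by binding von Willebrand factor through the GPIb-IX receptor, then fibrinogen through the integrin αIIbβ3, and by releasing the contents of their granules. Of the genes here, Itga2b and Itgb3 encode the αIIb and β3 chains of that integrin, and Itga2b (CD41) is also used as a marker of early hematopoietic progenitors. Gp1ba, Gp1bb and Gp9 encode the chains of the GPIb-IX receptor, and Vwf encodes its ligand. Rab27b is a small GTPase of dense granule secretion, and Treml1 (TLT-1) is a receptor stored in alpha-granules. GATA, ETS and RUNX factors are known regulators of such genes.

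All start-site bins that were listed in a loop were flagged as H3K27ac peak bins. The sequence just before the start site is shown for 5 of the 6 genes with a loop, and for Vwf as a gene without one. Each line gives, 5′ to 3′ on the gene's strand, the longest stretch without an annotated exon in the 250 bases before the canonical start site, read from GRCm39. The stretches are chr11:102360710-102360768 (minus strand) for Itga2b, chr11:104498576-104498825 for Itgb3, chr6:87754797-87755046 for Gp9, chr11:70529720-70529947 for Gp1ba, chr6:125529661-125529910 for Vwf and chr17:48666668-48666917 for Treml1, the last 5 on the plus strand. Capitals mark matches on either strand to the letters of 5 motif families, and overlapping matches were each counted.
Itga2b: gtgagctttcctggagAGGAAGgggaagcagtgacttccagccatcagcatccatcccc
Itgb3: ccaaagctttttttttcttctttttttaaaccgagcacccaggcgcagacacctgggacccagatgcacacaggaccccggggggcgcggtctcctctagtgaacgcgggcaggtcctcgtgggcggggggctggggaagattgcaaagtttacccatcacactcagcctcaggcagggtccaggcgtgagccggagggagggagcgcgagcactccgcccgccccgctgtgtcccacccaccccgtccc
Gp9: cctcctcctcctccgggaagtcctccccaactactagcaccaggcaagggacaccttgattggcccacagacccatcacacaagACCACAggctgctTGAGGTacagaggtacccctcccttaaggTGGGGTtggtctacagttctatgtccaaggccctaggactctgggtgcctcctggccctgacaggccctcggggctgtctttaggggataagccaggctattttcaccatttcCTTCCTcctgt
Gp1ba: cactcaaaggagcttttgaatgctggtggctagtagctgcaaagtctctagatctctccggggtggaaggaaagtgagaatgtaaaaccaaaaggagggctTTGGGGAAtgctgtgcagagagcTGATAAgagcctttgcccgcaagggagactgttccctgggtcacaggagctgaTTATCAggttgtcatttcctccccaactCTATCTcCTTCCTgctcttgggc
Vwf: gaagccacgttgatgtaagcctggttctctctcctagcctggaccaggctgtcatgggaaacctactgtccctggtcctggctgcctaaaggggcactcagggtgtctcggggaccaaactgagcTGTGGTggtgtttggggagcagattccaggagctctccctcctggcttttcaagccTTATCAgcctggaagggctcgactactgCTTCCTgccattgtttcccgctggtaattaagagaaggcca
Treml1: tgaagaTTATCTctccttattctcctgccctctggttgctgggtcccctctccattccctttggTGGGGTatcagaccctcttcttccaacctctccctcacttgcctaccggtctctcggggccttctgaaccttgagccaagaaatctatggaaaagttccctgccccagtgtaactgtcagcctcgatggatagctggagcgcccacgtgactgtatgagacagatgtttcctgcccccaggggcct

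The letters searched were AGATAA or TGATAA or AGATAG or TGATAG for GATA factors, AGGAAG or CGGAAG for ETS factors, TGNGGT for RUNX, TTNCNNAA for C/EBP and TGANTCA for AP-1. Over the full 250 bases, GATA letters were present before 4 of the 8 genes and before 26.2% of all 21751 promoters. Gp1ba had 3 of these matches, and Vwf, Gp1bb and Treml1 had 1 each. ETS letters were present before 6 of the 8 genes, all but Itgb3 and Treml1, and before 39.3% of all promoters. RUNX letters, searched loosely with the third base left open, preceded 4 of the genes (39.4% of all promoters). The 3 matches before Gp9 differ at that base. C/EBP letters preceded Gp1ba and Rab27b (36.9% of all promoters). The AP-1 letters were in none of the 8 windows, and in 6.17% of all promoters. Itgb3 had no match to any of the 5 families and the highest GC content of the 8 windows, 64.4%, against a median of 53.2% over all promoters. A match is a description of these letters and not a binding site.

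The 4 lists hold between 78591 and 158233 loops at a q-value under 0.01, from 14503330 (p30 LPS) to 18999991 (p42 UT) modelled contacts. The p42 UT list is the longest by far, so the numbers of loops were also taken from lists cut to 78591 loops, the length of the shortest, by keeping the loops of smallest q-value. Progenitor marker genes had loops widely, 13 of 14 in each of the 4 lists. Kit, the receptor for stem cell factor, had 3, 5, 17 and 5 loops (3, 5, 6 and 5 at equal list length). Markers of the red cell lineage had a loop for 5, 4, 5 and 2 of 16 genes (31.25%, 25%, 31.25% and 12.5%). Markers of granulocytes and macrophages had one for 10, 12, 16 and 14 of 20 (50%, 60%, 80% and 70%). Of all protein-coding genes 37.2%, 38.7%, 44.8% and 35.1% had one. Among the red cell markers the globin genes Hba-a1 and Hbb-bt had none. Tfrc had 7, 7, 14 and 8 loops (6, 3, 8 and 8 at equal list length), and Klf1 2, 5, 11 and 6 (2, 5, 7 and 6).

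A promoter loop was listed for 5 of the 8 genes in p30 UT, where 37.2% of all protein-coding genes had one. The number was 6 of 8 in p30 LPS (38.7% of all genes), 5 of 8 in p42 UT (44.8%) and 3 of 8 in p42 LPS (35.1%). With neighbouring bins included the numbers were 5, 6, 6 and 6, and with all annotated start sites 6, 7, 6 and 5. Shares over all genes with these wider sets of bins are not given here. They can be no lower than those above, so the wider numbers cannot be set against the shares above. Itgb3 and Gp9 had a loop in all 4 lists. Itgb3, Gp1ba and Treml1 had more loops in p42 UT than in any other list, as did 63.8% of the 10513 genes with a loop somewhere (in lists of equal length, Itgb3 and 17.7% of genes). No gene of the 8 had more loops in both p42 lists than in either p30 list, where 12.6% of genes did (10.4% at equal length). Itga2b, Gp1ba and Treml1 had one in every list but that of p42 LPS, a pattern of 7.11% of those genes (at equal length, Gp1ba and Treml1, and 4.55% of genes). Rab27b had a loop after LPS in both lines and in neither untreated list, and Gp1bb and Vwf had none in any list. The 67 listings at the 6 genes were 40 distinct bin pairs, of which 22 were in 1 list, 11 in 2, 5 in 3 and 2 in all 4. In 39 of the 40 pairs the partner bin was also a peak bin, in 31 it lay downstream of the start site in the direction of transcription, in 13 it lay within the same gene and in 11 it held the start site of another protein-coding gene. These are 97.5%, 77.5%, 32.5% and 27.5% of the pairs, where all 86077 pairs at protein-coding start sites gave 92.5%, 53.0%, 17.9% and 24.8%. The pairs of 1 gene often lie in neighbouring bins and are not independent. The bars of loop number by gene and list show this layout.

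**Figure D1:**
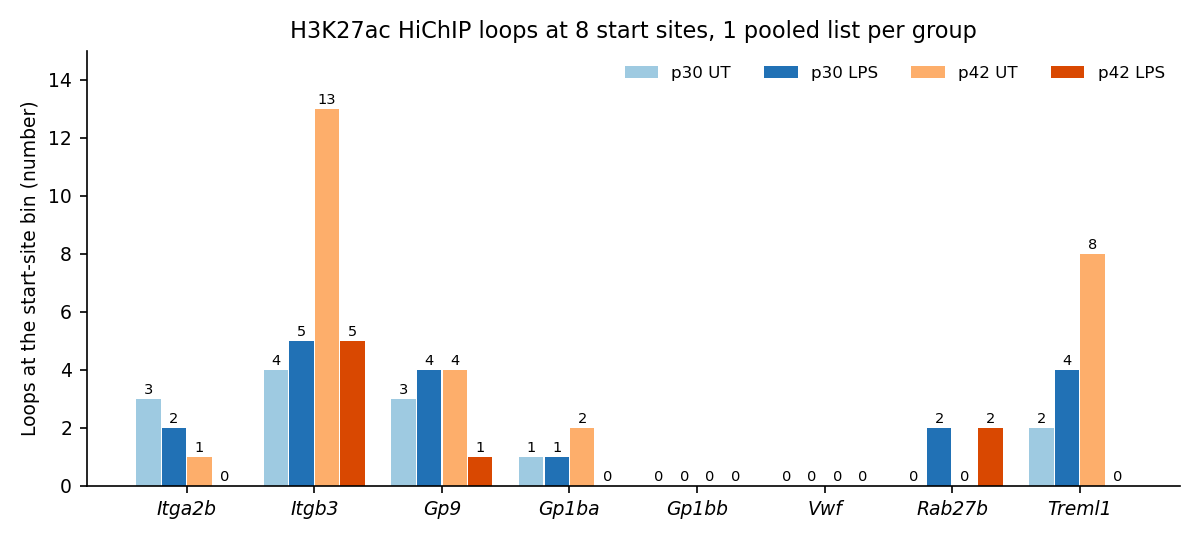
Number of loops at the start-site bin of each of the 8 genes (bars, with the number printed above) in the 4 pooled loop lists; there are no replicate values and no error bars. Itgb3 and Treml1 stand highest in p42 UT with 13 and 8 loops, Rab27b has 2 loops in each LPS list alone, and Gp1bb and Vwf are at 0 throughout.

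Itga2b (chr11:102341397-102360955, minus strand, gene ENSMUSG00000034664.15) had 3, 2, 1 and 0 loops. Both p42 lists thus held fewer than either p30 list, as for 2.15% of the 10513 genes (11.4% at equal list length). At equal list length the Itga2b numbers were 3, 1, 0 and 0. At a q-value under 0.001 no Itga2b loop remained in any list. Its nearest partner, 25 kb downstream at chr11:102335001-102340000, holds the start site of Fam171a2 and was listed with 18 contacts in p30 UT and 15 in p30 LPS, 2.93 and 3.17 times the number expected for bins of that distance and coverage. The start site of Gpatch8, 85 kb upstream, was joined with 12 and 11 contacts in the same lists, 4.46 and 4.59 times the expected number. Neither pair was listed in p42 cells. The most distant partners of the 8 genes were also those of Itga2b, the start of Atxn7l3, which encodes a subunit of the SAGA deubiquitinase module, 175 kb away in p30 UT (10 contacts, 5.38 times expected), and that of Tmub2, 185 kb away in p42 UT (9 contacts, 4.99 times expected). Its loops were weak for their length, and 4.56% to 24.1% of promoter loops of the same list and distance had a lower ratio of contacts over expected. No Itga2b partner lay within the gene itself.

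Itgb3 (chr11:104498826-104561302, plus strand, ENSMUSG00000020689.6) had the most loops of the 8, with 4, 5, 13 and 5, and 4, 5, 7 and 5 in lists of equal length. Of its 15 distinct partners 10 lay within Itgb3, from 15 to 65 kb downstream of the start-site bin. Both of the bin pairs that were in every list belonged to it. One joined the start site to an intron of Itgb3 40 kb downstream, chr11:104535001-104540000, with 18, 15, 31 and 20 contacts, which was 5.19, 5.12, 7.90 and 6.16 times the expected number. In the p42 UT list 91.1% of promoter loops of this length had a lower ratio. The other reached 10 kb upstream to chr11:104485001-104490000, which holds an exon of Myl4, with 48, 62, 82 and 55 contacts, 1.85, 2.52, 2.72 and 2.54 times the expected number. Contacts were highest in p42 UT for both pairs, and at the nearer pair those of p42 LPS lay between the p30 lists.

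The further Itgb3 partners differed between lists. Bins 15, 20, 25 and 30 kb into the gene were all listed in p42 UT, with 38, 33, 22 and 21 contacts. The bin at 15 kb was also listed in p30 UT, with more contacts and a higher ratio (40 contacts, 2.67 times expected, against 2.02 in p42 UT). The bin at 30 kb was also listed in p30 LPS (20 contacts, 4.48 times expected, against 3.77 in p42 UT). The start site of Cdc27, a subunit of the anaphase-promoting complex, was joined in p30 LPS (55 kb upstream, 15 contacts, 4.29 times expected), and that of Efcab3 in p42 UT (80 kb downstream, 13 contacts, 6.51 times expected). Within 100 kb either way of the start there were 28, 44, 59 and 33 loops of any kind, most in p42 UT, and 28, 42, 38 and 33 at equal list length, most in p30 LPS.

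**Figure D2:**
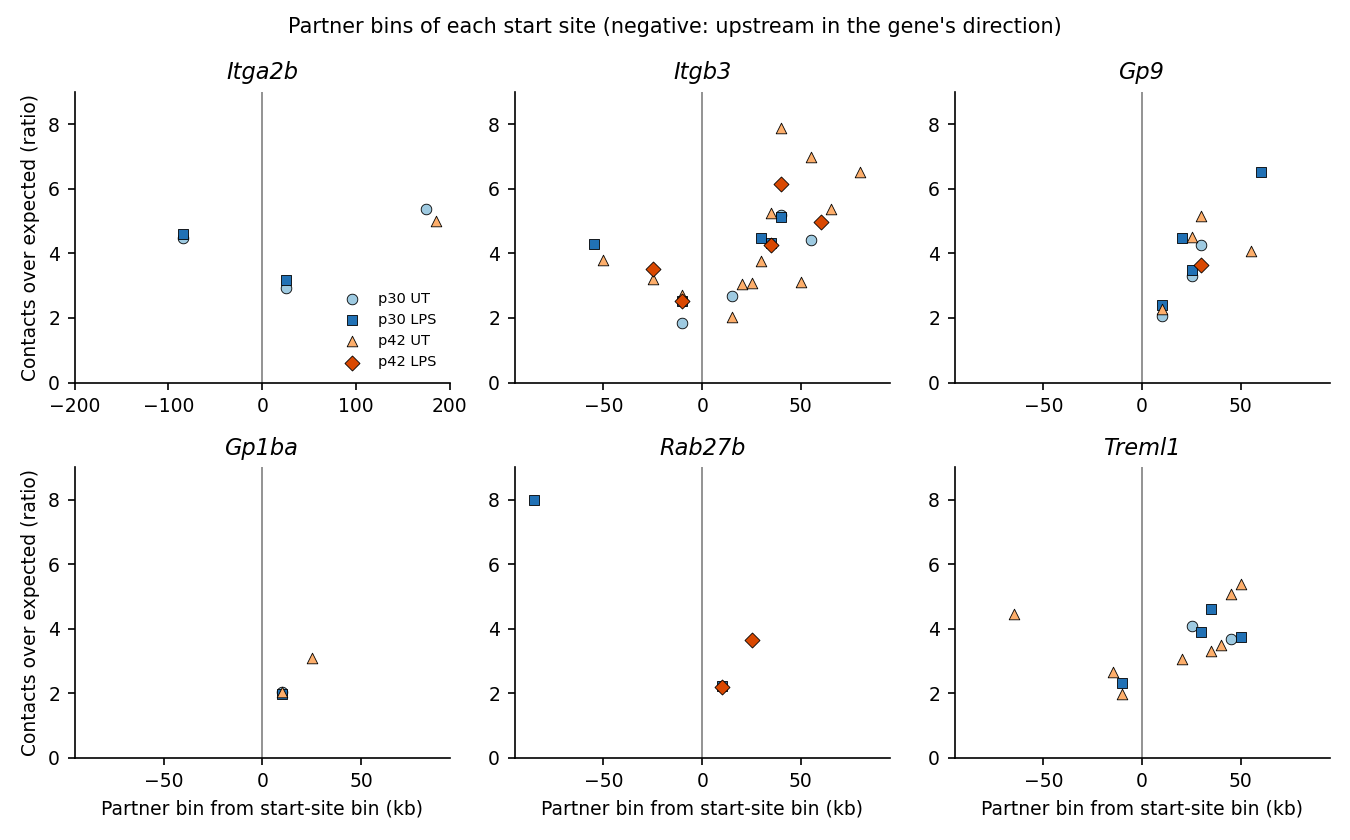
Contacts over expected (ratio, vertical axis) against the distance of each partner bin from the start-site bin (kb, negative upstream in the direction of the gene) for the 6 genes with a loop, 1 point per loop and list. Itgb3 and Treml1 have most points, those of Gp9 and Gp1ba lie downstream of the start site, and the horizontal axis of Itga2b is wider than the others.

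Of the GPIb-IX receptor genes, Gp9 (chr6:87755047-87756750, plus strand, ENSMUSG00000030054.6) had 3, 4, 4 and 1 loops, all of them to bins downstream of this short gene. The nearest partner, 10 kb away in Rab43 (a small GTPase of the secretory pathway), had 60, 44 and 55 contacts in the first 3 lists, 2.06, 2.39 and 2.27 times the expected number, and was not listed in p42 LPS. A Rab43 intron 25 kb away had 24, 17 and 28 contacts in the same lists, 3.31, 3.48 and 4.51 times expected. The start site of Rab43, 30 kb away at chr6:87785001-87790000, was the single partner in p42 LPS, with 15 contacts (3.63 times expected), and had 28 in p30 UT (4.25) and 29 in p42 UT (5.15). In p30 LPS the start of the splicing factor gene Isy1, 60 kb away, was joined with 16 contacts, 6.53 times expected, the highest ratio at Gp9.

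Gp1ba (chr11:70529948-70532862, plus strand, ENSMUSG00000050675.8) had 1, 1, 2 and 0 loops. Its shared partner was the bin 10 kb downstream, chr11:70535001-70540000, which holds the start sites of Slc25a11, the mitochondrial oxoglutarate carrier, and of Rnf167, a ubiquitin ligase. This pair had 78 contacts in p30 UT, 62 in p30 LPS and 81 in p42 UT, 2.04, 1.96 and 2.03 times the expected number, and these 3 ratios lay close together. A partner 25 kb downstream, over exons of Eno3 and Spag7, was listed in p42 UT with 20 contacts, 3.10 times expected. With both neighbouring bins included, Gp1ba had 6, 5, 9 and 3 loops (6, 4, 2 and 3 at equal list length), so p42 LPS held loops next to the start site but not at it.

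Gp1bb (chr16:18439067-18441153, minus strand, ENSMUSG00000050761.5) had no loop in any list. Its 250 bases before the start site lie within annotated exons, and its surroundings were nearly empty, with 0, 0, 1 and 0 loops within 100 kb either way (0 in each list at equal length). The 3 chains of 1 receptor were therefore unlike, with 12 listings over the 4 lists at Gp9, 4 at Gp1ba and 0 at Gp1bb.

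The ligand gene Vwf (chr6:125523737-125663642, plus strand, ENSMUSG00000001930.19) had no loop at its canonical start bin chr6:125525001-125530000, nor at either neighbouring bin, in any list. Unlike Gp1bb it lay in a region with many loops, and 18, 17, 42 and 24 loops passed over its start site and ended within the gene. At equal list length 18, 14, 19 and 24 loops passed over it, most in p42 LPS. Of these, 8 bin pairs were in every list. The pair with most contacts joined chr6:125395001-125400000, 130 kb upstream and over exons of the long noncoding RNA genes Gm66368 and Gm66372, to chr6:125575001-125580000, over a Vwf exon 50 kb past the start. It had 42, 35, 47 and 34 contacts, which was 26.1, 23.4, 27.5 and 21.9 times the expected number. Of loops of this length, 2 of 341 in p30 UT, 4 of 337 in p30 LPS, 1 of 678 in p42 UT and 3 of 312 in p42 LPS had a higher ratio. The end in Vwf was not flagged as an H3K27ac peak bin in any list, and the upstream end was flagged in all 4. The bins were covered by 2147, 1447, 2142 and 1589 reads within Vwf and by 1872, 1462, 2224 and 1545 upstream. A further pair reached Vwf from an exon of Cd9, a tetraspanin gene whose product is abundant on platelets, with 13, 11, 19 and 15 contacts, 5.24, 5.09, 6.64 and 6.10 times expected.

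Vwf has other annotated start sites, in 10 bins with the canonical one, and with these included it had 4, 3, 6 and 3 loops (4, 3, 2 and 3 at equal list length). All but 1 of them ended in the bin 55 kb into the gene (3, 3, 6 and 3 loops), next to the bin of the strongest pair.

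**Figure D3:**
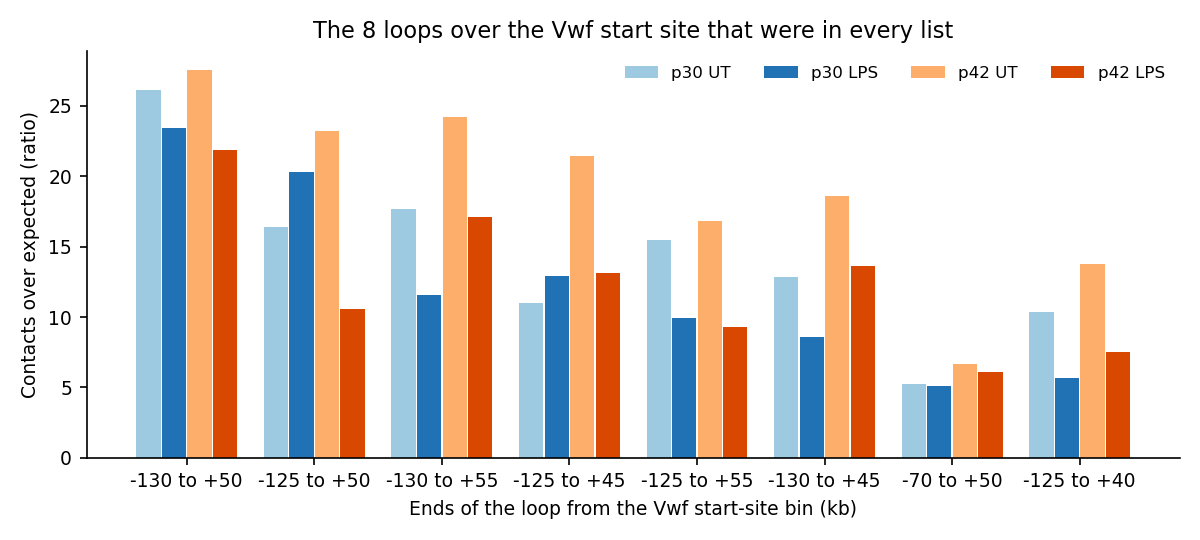
Contacts over expected (ratio, bars from 0) for the 8 loops that span the Vwf start-site bin in all 4 lists, named by the distance of both ends from that bin in kb, ordered by summed contacts. The pair from 130 kb upstream to 50 kb downstream is highest in each list, at 26.1, 23.4, 27.5 and 21.9 (p30 UT and LPS, then p42 UT and LPS); no replicate values exist.

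Rab27b (chr18:70112202-70274903, minus strand, ENSMUSG00000024511.17) had 0, 2, 0 and 2 loops. Of the 10513 genes with a loop, 48 (0.457%) were listed after LPS in both lines and in neither untreated list, and 336 (3.20%) the other way round. In lists of equal length the shares were 1.81% and 1.94%, and Rab27b kept its 0, 2, 0 and 2 loops. One pair was in both LPS lists, to an intron of Rab27b 10 kb downstream (chr18:70175001-70180000). It had 45 contacts for p30 and 45 for p42, 2.23 and 2.18 times the expected number. The second p30 LPS partner, 85 kb upstream, is the other bin with an annotated Rab27b start site (12 contacts, 8.0 times expected). The second p42 LPS partner lay 25 kb downstream in an intron (16 contacts, 3.65 times expected). Surroundings were sparse, with 3, 9, 5 and 6 loops within 100 kb (3, 9, 2 and 6 at equal list length). A pair not listed had a q-value of 0.01 or more or was not tested, which is not an absence of contact, and its contacts were not among the values used here, so no fold between LPS and UT can be given.

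Treml1 (chr17:48666918-48674208, plus strand, ENSMUSG00000023993.9) had 2, 4, 8 and 0 loops. At equal list length the numbers were 2, 2, 2 and 0, so p42 UT no longer stood above the p30 lists and p42 LPS was still at 0. All but 1 of its downstream partners lay in Nfya, which encodes a subunit of the CCAAT-binding factor NF-Y, from 25 to 50 kb away. The exception, 20 kb away and short of Nfya, was listed in p42 UT with 18 contacts (3.05 times expected). The bin with the start sites of Nfya and Oard1, an ADP-ribose hydrolase gene, was joined in p30 LPS (12 contacts, 3.75 times expected) and in p42 UT (22 contacts, 5.38 times expected). The bin 45 kb away had 15 contacts in p30 UT (3.68) and 21 in p42 UT (5.07). Upstream, a bin over exons of Trem2 10 kb away had 38 contacts in p30 LPS (2.30) and 46 in p42 UT (1.97). The start site of Trem2, a related receptor gene of myeloid cells, named here after its values were seen, was joined in p42 UT with 29 contacts (2.66). The region was not empty in p42 LPS, where 56 loops lay within 100 kb either way, against 43, 40 and 116 in the first 3 lists (43, 30 and 69 at equal list length, with 56 in p42 LPS).

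Across the 8 genes, member loops were shorter and had lower ratios than promoter loops in general. Their median ratio of contacts over expected was 3.68, 4.09, 3.64 and 3.64, against 4.63, 4.67, 4.56 and 4.64 over all promoter loops. Their median length was 25, 30, 32.5 and 27.5 kb, against 50, 45, 50 and 45 kb. Set against promoter loops of the same length and list, the median member loop stood above 44.2%, 54.3%, 47.9% and 51.1% of them. By gene, the median was 62.9% for the 12 listings of Gp9, 50.4% for the 27 of Itgb3, 45.5% for the 14 of Treml1, 53.6% for the 4 of Rab27b, 34.9% for the 4 of Gp1ba and 13.5% for the 6 of Itga2b.

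The first comparison asked whether the isoform changes these loops without LPS. In p42 UT, 28 loops were listed at the 8 genes against 13 in p30 UT, a ratio of 2.15, and all genes together had 66699 against 34879, a ratio of 1.91. The p42 share of the member loops was 68.3% (95% Wilson interval 53.0% to 80.4%, counting error only, with neighbouring bin pairs counted as separate loops). With adjacent bin pairs merged into 1 loop, the numbers were 15 in p42 UT and 11 in p30 UT (log2 ratio 0.45 against 1.11), and Itgb3 had 6 and 3. Of the 5 genes with a loop in either list, 3 had at least 1.5 times as many in p42 (Itgb3, Gp1ba and Treml1; 71% of all genes did) and Itga2b at least 1.5 times fewer (6.84% of all genes). In lists of equal length both lines had 13 loops at these genes, with 1 gene higher (Itgb3, 30.7% of all genes) and 1 lower (Itga2b, 28.5%).

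After LPS the order was the other way. The 8 genes had 8 loops in p42 LPS and 18 in p30 LPS, a ratio of 0.444, against 0.770 over all genes, and the p42 share was 30.8% (16.5% to 50.0%) where all genes had 43.5%. With neighbouring bins included the 8 genes had 28 loops in p42 LPS and 40 in p30 LPS (log2 ratio −0.51 against −1.17). Of 6 genes with a loop in either list, 4 had at least 1.5 times fewer in p42 (Itga2b, Gp9, Gp1ba and Treml1; 45.8% of all genes) and 0 had more (17.7% of all genes), while Itgb3 and Rab27b were equal at 5 and 2. With lists of equal length the numbers were 8 and 15, again with 4 lower (35.1% of all genes) and 0 higher (25.8%).

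Within p30 cells, LPS went with 18 loops against 13 (ratio 1.38, all genes 1.22). Rab27b and Treml1 had at least 1.5 times as many after LPS (38.6% of all genes) and Itga2b fewer (20.9%). At equal length, 1 gene was higher (30.1% of all genes) and 1 lower (28.2%) of the 6. Within p42 cells, LPS went with 8 loops against 28 (ratio 0.286, all genes 0.491), and the LPS share was 22.2% (11.7% to 38.1%) where all genes had 32.9%. With adjacent bin pairs merged it was 7 against 15, and with neighbouring bins included 28 against 62. In the lists as deposited 5 genes had fewer loops (78% of all genes) and Rab27b more (3.81%). At equal length the numbers were 8 against 13, with 3 of 5 genes lower (33.1% of all genes) and 1 higher (23.1%). Itgb3, Gp9 and Treml1 had more loops after LPS in p30 and fewer in p42, and 41.1% of the 10513 genes had LPS changes of opposite sign in the lines (at equal length Itgb3 and Gp9, and 25.3% of genes). Each list enters 2 of these 4 comparisons, so they are not independent.

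Contacts could be tested where a loop was in both lists compared, with an exact binomial test for each loop and Benjamini-Hochberg adjustment over all loops in both lists. This test compares the pooled libraries, not the conditions. None of the 9 member loops in both untreated lists passed an adjusted p of 0.05 (1.06% of 59069 loops were higher in p42 and 0.286% lower), and the lowest adjusted p was 0.634 in this exact test, at the Gp9 partner 10 kb away with 55 contacts in p42 UT and 60 in p30 UT. None of 4 passed after LPS (0.351% and 0.390% of 46110), none of 7 for LPS in p30 (0.251% and 0.066% of 47004) and none of 5 for LPS in p42 (0.0735% and 0.222% of 59847). At an unadjusted p under 0.05 the member count was also 0 in each, where 9.19%, 7.04%, 5.89% and 6.03% of all loops passed. With other null shares 1 member loop passed unadjusted, the Itgb3 loop 10 kb upstream. Between untreated lines its exact p was 0.0349 against the expected counts and 0.00831 against the modelled contacts (adjusted p 0.530 and 0.112), and for LPS in p30 it was 0.0162 against the modelled contacts (adjusted p 0.253). For the Itgb3 loop to its intron, the p42 share of untreated contacts was 63.3% (95% Wilson interval 49.3% to 75.3%) around the 56.3% that all shared loops gave, and for the loop 10 kb upstream 63.1% (54.5% to 70.9%). At Gp1ba the p42 share was 50.9% (43.2% to 58.6%), and at the Rab27b pair of both LPS lists 50.0% (39.9% to 60.1%) around 49.1%.

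Over the 2 Itgb3 loops of every list, p42 UT had 113 contacts and p30 UT 66, a log2 ratio of 0.70 per modelled contact and 0.34 per contact in all loops of every list. The p42 share was 63.1% (55.9% to 69.9%), where the modelled contacts of both lists gave 51.4% and all loops of every list 57.5%, inside the interval. After LPS the numbers were 75 in p42 and 77 in p30 (log2 ratio −0.16 per modelled contact). Its sign turned under other scalings, to 0.11 per expected contact and 0.044 per contact in all loops of every list. Only 1 of the 2 loops, that to the Itgb3 intron, had a q-value under 0.001 in every list. For it alone the log2 ratio was 0.29 per modelled contact. The ratio for LPS over UT was 0.53 in p30 and −0.33 in p42 per modelled contact, and 0.24 and −0.052 per contact in all loops of every list. Over the 9 member loops in both untreated lists the log2 ratio was 0.17. At Gp9 and Gp1ba each p42 share lay below the 56.3% of all shared loops. So did that of the Itgb3 loop 15 kb into the gene, at 48.7% (37.9% to 59.6%). The direction at Gp9 turned with the null share. Against the expected counts of the caller its loops 10, 25 and 30 kb away had log2 ratios of 0.14, 0.44 and 0.28. By the same counts Gp1ba stood at 50.9% against 51.1%, and the Itgb3 loop at 48.7% against 55.7%.

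The coverage of the start-site bin, the number of reads the caller counted there, reflects H3K27ac enrichment at the promoter and was given for bins listed in a loop. It was 3548, 3431, 4768 and 2854 at Itgb3 and 3337, 2005, 2556 and 1412 at Gp9. At Itga2b it was 4780, 4364 and 4377 in the first 3 lists, at Gp1ba 2963, 2576 and 3103, and at Treml1 2823, 1874 and 2576, and p42 LPS gave no value. Rab27b had 3007 in p30 LPS and 2233 in p42 LPS. Relative to the mean of all peak bins of the list, Itga2b was highest in the p30 lists, at 1.99 and 1.95, and Itgb3 in p42 UT, at 1.64 against 1.5 for Itga2b. Gp9 in p42 LPS was lowest, at 0.728. The middle of all start-site peak bins lay at 1.44, 1.49, 1.44 and 1.44 in the 4 lists, so Gp9, Gp1ba, Rab27b and Treml1 were below it wherever they were listed.

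**Figure D4:**
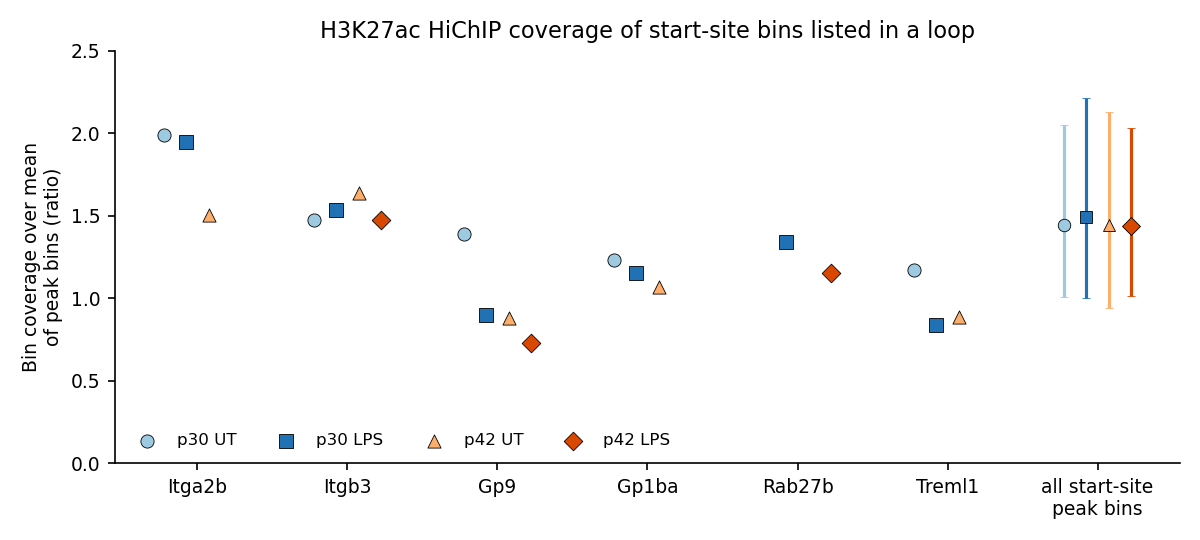
Coverage of the start-site bin divided by the mean coverage of peak bins of the same list (ratio, vertical axis) for the 6 genes listed in a loop, 1 point per list; at the right, the median and quartiles (bars) of all start-site peak bins. Gp9 falls from 1.39 in p30 UT to 0.728 in p42 LPS, and Itga2b is lower in p42 UT (1.5) than in the p30 lists (1.99 and 1.95).

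Relative to peak bins, the coverage at 4 of 5 genes was lower in p42 UT than in p30 UT, with a median log2 ratio of −0.40 against 0.06 over 6849 start-site bins. Gp9 was lowest at −0.66 and passed 1.5-fold (1.43% of bins did in this direction, 3.72% in the other), Treml1 and Itga2b stood at −0.41 and −0.40, and Itgb3 was higher at 0.15. After LPS the 3 genes with a value in both lines had a median of −0.22 (−0.11 over 6135 bins), and none passed 1.5-fold (1.79% of bins higher, 3.72% lower). With LPS in p30 cells the median over 5 genes was −0.10 (0.04 over 6394 bins), and it turned to 0.11 when scaled to modelled contacts. Gp9 again passed 1.5-fold, at −0.63, as did 0.36% of bins in this direction (1.92% in the other), and Treml1 stood at −0.49, where 1.02% of bins were lower. With LPS in p42 cells Itgb3 and Gp9 stood at −0.15 and −0.27 (median of 6592 bins −0.13), and neither passed 1.5-fold (0.743% of bins higher, 1.09% lower). Both Gp9 values that passed rest on the same p30 UT coverage of 3337, and scaled to the modelled contacts they were −0.46 and −0.43, short of 1.5-fold. By that scaling Gp9 did pass 1.5-fold where it had not relative to peak bins. It stood at −0.63 for p42 over p30 after LPS and at −0.59 for LPS in p42. The share of all bins passing by that scaling is not given here.

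Genes with the loop numbers most like those of Itgb3, by the summed difference in log2(loops + 1) over the 4 lists, were Gcnt1 and Kdm5a (4, 5, 11 and 5 loops, difference 0.222) and Chst12, Gadd45gip1 and Hdac4 (4, 4, 13 and 5 loops, difference 0.263). Those most like Treml1 were Slc3a2, with the same 2, 4, 8 and 0 loops, Cdca7 (2, 4, 9 and 0), Arpc1b (2, 4, 7 and 0), Pofut4 (2, 3, 8 and 0) and Pi4k2a (2, 4, 6 and 0). The likeness is over 4 lists that also differ in length.

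A start-site loop was listed for 75, 77, 79 and 72 of 104 other megakaryocyte and platelet genes, which is 72.1%, 74.0%, 76.0% and 69.2%. Of all protein-coding genes 37.2%, 38.7%, 44.8% and 35.1% had one. The leading genes named below are the 2 of each group with most loops summed over the 4 lists as deposited. Of the receptor and signalling genes, 24, 25, 26 and 24 of 35 had a loop, led by Fcer1g, the shared Fc receptor gamma chain that couples to the platelet collagen receptor (19, 21, 36 and 14 loops), and Fermt3, the kindlin that activates integrins (17, 21, 22 and 16). Of the granule and secretion genes, 20, 20, 21 and 21 of 28 had one, led by Nbeal2, needed for alpha-granule formation (16, 20, 19 and 16), and Srgn, the granule proteoglycan serglycin (16, 17, 19 and 15). Among the cytoskeleton and metabolism genes it was 10, 11, 11 and 9 of 18. In sum over the lists Myh9, nonmuscle myosin heavy chain (15, 22, 19 and 19), and Bin2 (14, 18, 26 and 10) were in front. In p42 LPS Pla2g4a, with 15, stood above Bin2. Of 23 transcription factor genes, 21, 21, 21 and 18 had one. In sum over the lists most were at Nfe2, a regulator of platelet release (16, 16, 21 and 20), and its small Maf partner Mafg (12, 16, 27 and 14). In single lists other genes stood above Nfe2, such as Lyl1 with 17 in p30 LPS and Erg with 26 in p42 UT. No loop in any list was found for 7, 6, 6 and 2 genes of the 4 groups. At equal list length p42 UT held 24 loops at Fcer1g, 17 at Fermt3, 15 at Nbeal2 and 16 at Srgn. It held 17 at Myh9 and 16 each at Bin2, Nfe2 and Mafg. Most of these leading genes are also used by other blood cells.

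**Figure D5:**
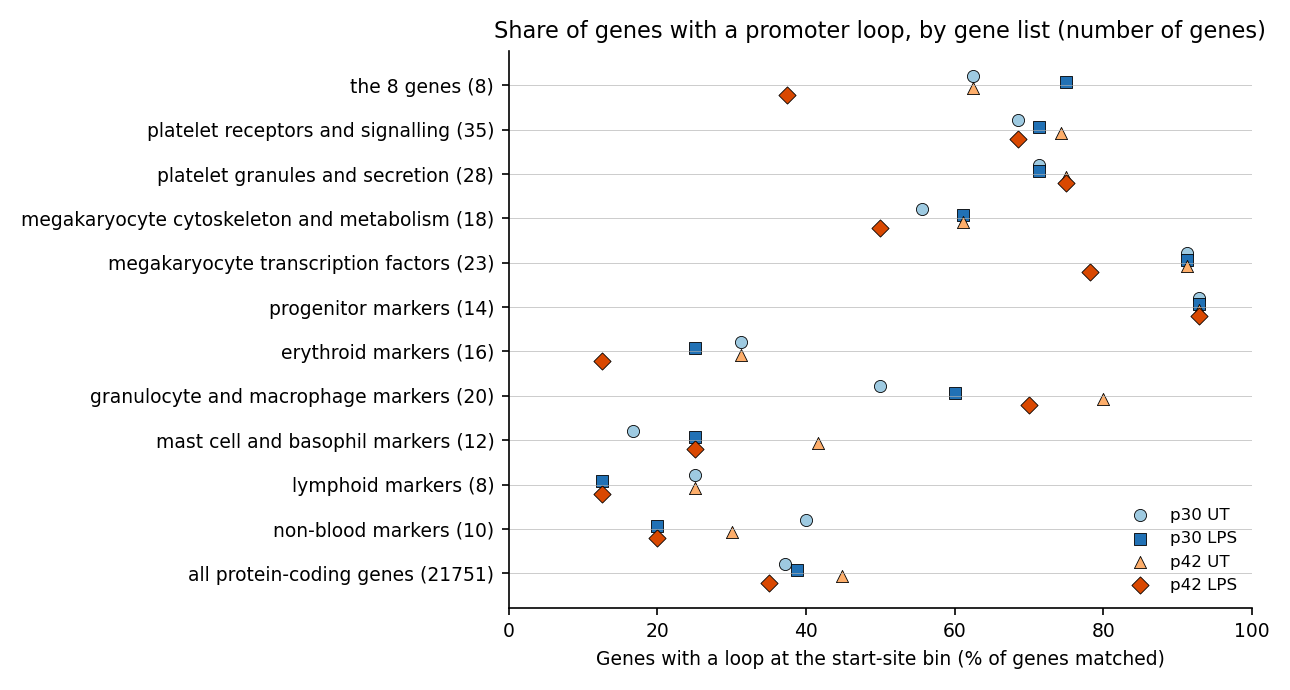
Share of genes with a loop at the start-site bin (% of genes matched, horizontal axis) in each of the 4 lists for the 8 genes, 4 groups of other megakaryocyte genes, 6 groups of marker genes and all protein-coding genes, with the number of genes in brackets. The 8 genes range from 37.5% in p42 LPS to 75% in p30 LPS, transcription factor and progenitor genes, which share 8 genes, stand highest in each list, and the erythroid, lymphoid, mast cell and non-blood groups lie below the other groups of named genes.

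The other megakaryocyte genes were compared in the same way. In untreated cells 52 of 81 (71% of all genes) had at least 1.5 times as many loops in p42 and 4 fewer (6.84% of all genes). After LPS 17 of 79 had more (17.7%) and 30 fewer (45.8%). In p30 cells LPS went with more loops at 21 of 80 (38.6%) and fewer at 14 (20.9%), and in p42 cells with more at 0 of 79 (3.81%) and fewer at 62 (78%). At equal list length 18 were higher (30.7% of all genes) and 15 lower (28.5%) of 77 in untreated cells, and 21 (25.8%) and 21 (35.1%) of 79 after LPS. For LPS in p30 it was 18 (30.1%) and 18 (28.2%) of 80, and in p42 10 (23.1%) and 19 (33.1%) of 76.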

How the data were processed

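HiChIP for H3K27ac was done in 2 libraries for each of 4 groups, 8 in all. The authors aligned reads to mm39 with BWA (0.7.17, per the submitters' processing notes) and called loops of 5 kb bins with FitHiChIP, and deposited 1 list per group with both libraries pooled. Each line of a deposited list holds the contact count, the expected count of the caller, the coverage of both bins (reads, whole-number counts), a coverage bias (a ratio to the mean of bins of the same kind), a peak flag, a contact probability (a fraction) and the q-value (a p-value adjusted over all tested pairs), as the authors computed them. Listed loops had a q-value under 0.01, a length of at least 10 kb and at least 1 peak bin. Modelled contacts and the mean coverage of peak bins were recovered from the contact probability and bias columns.

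From these, contacts were divided by expected counts, and start-site bins were matched to GENCODE vM39 (GRCm39) in Python 3.11.15 with pandas 2.3.3. All bins of 21 chromosomes lay within the GRCm39 lengths. Exact two-sided binomial tests (scipy 1.17.1) with Benjamini-Hochberg adjustment were tested on simulated data, and Wilson intervals came from statsmodels 0.14.6. Named genes were the 8 genes, genes whose start lies in a partner bin of a loop in every list or of 1 of a gene's 5 loops of highest ratio, the 5 genes most like Itgb3 and Treml1 in loop number (genes within 1 Mb left out), and the 2 genes with most loops of each further list. Genes named as the annotation of a bin, Kit, the globin genes, Tfrc, Klf1, Pla2g4a, Lyl1, Erg and the loops over Vwf were chosen after their values were seen. The members and lists were chosen with earlier results of these data known. Alternatives were other q-value limits, lists of equal length, at least 10 contacts, lengths of at least 20 kb, neighbouring bins, all annotated start sites, merged pairs and other scalings. Equal-length numbers of loops around or over a start site, with neighbouring bins and with all start sites were added after seeing the data.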

Additional observations from a re-analysis of the deposited data

Results flagged for a closer look

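Summed over the 8 genes, and at 3 of the 6 with a loop (41.1% of the 10513 genes with a loop in any list; at equal length 2 of the 6 and 25.3%), the change in loop number with LPS ran in opposite directions in the lines. Over the 8 genes, LPS went with 5 more loops in p30 and 20 fewer in p42, a difference of −25. All protein-coding genes together moved the same ways, by 7619 and −33975 loops. In lists of equal length the 8 genes changed by 2 and −5 (difference −7) and all genes by 1965 and −3562. For Itgb3 the changes were 1 and −8 (difference −9; −3 at equal length), for Gp9 1 and −3 (−4; −3 at equal length) and for Treml1 2 and −8 (−10). At equal length Treml1 changed by 0 in p30 and −2 in p42. Itga2b changed by −1 in both lines, and at equal length by −2 in p30 and 0 in p42. Rab27b changed by 2 in both lines, also at equal length. Gp1ba changed by 0 in p30 and −2 in p42. There p42 had 1 loop more than p30 without LPS and 1 fewer with it (difference −2; −1 at equal length). With 1 pooled list per group these differences were not tested, and the p42 UT list, the longest of the 4, enters each of them.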

How the results depend on the processing

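No paired analysis was possible because each deposited list pools both libraries of its group, so no library could be left out either. A pair under the caller's threshold has no value here, and the lists differ in length. How far depth sets that length was not tested. The p30 LPS list had the fewest modelled contacts (14503330) but more loops (94609) than p42 LPS (78591 loops, 15831583 modelled contacts). The number of genes with a loop fell to 2 in p30 UT, 2 in p30 LPS and 1 in p42 LPS at a q-value under 1e-05. In p42 LPS it was 6 with neighbouring bins and 5 with all annotated start sites. Shares over all genes under these settings are not given here. The log2 ratio of loops between untreated p42 and p30 was 1.11 as deposited, 2.46 at a q-value under 1e-05 and 0 in lists of equal length, and that for LPS in p42 was −1.81 and −0.70 at equal length. With adjacent bin pairs merged these were 0.45 and −1.10, and with neighbouring bins 0.82 and −1.15. Between the LPS lists the ratio was −1.17, and −0.51 with neighbouring bins and −0.58 at a q-value under 1e-05, where the lists hold 2 and 3 such loops. The log2 ratio of contacts between untreated lines was 0.17 over loops in both lists in place of those in all 4. For LPS in p30 it was 0.047 at the 1 loop with a q-value under 0.001 in all 4 lists. Between the LPS lists it was −0.16 per modelled contact and turned to 0.11 per expected contact and 0.044 per contact in loops in all 4 lists. At that 1 loop it was 0.29 per modelled contact. Coverage moved with its scaling. Relative to the median start-site bin the log2 ratios were −0.46 (p42 over p30, UT), −0.11 (the same, LPS), −0.14 (LPS in p30) and −0.079 (LPS in p42), and relative to modelled contacts −0.21, −0.56, 0.11 (a turn in sign) and −0.54. With neighbouring bins they were −0.089 (LPS lists), −0.17 (LPS in p30) and −0.10 (LPS in p42). Treml1 turned to 1 loop fewer after LPS in p30 (−1) with neighbouring bins. The cause was not tested. Under the alternatives that were run, no member loop was called in any of the 4 comparisons at an adjusted p of 0.05. Of the differences in loop number of single genes under these alternatives, 148 kept their direction or stayed at 0, often at another size, 35 moved to or from 0 or turned where the difference was under 1.5-fold, and 1 larger difference turned.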
